A study of Mus musculus with 12 samples.

Results

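The 91 genes described here are those that peaked at Day 2 of retinoic acid differentiation in control mouse embryonic stem cells (mESCs), out of 24495 genes in the count table. They were chosen by the measured values of the control line shSC alone: a mean of at least 5 CPM (counts scaled to a library total of 1000000) over the 2 Day 2 libraries, and at least 3 times both the Day 0 mean and the Day 4 mean, each with 0.5 CPM added. Numerically 95 genes passed, and Sox3, Hoxb1, Col2a1 and Cdx1 were left out because their families were set aside by symbol. For comparison, 11386 genes had a shSC Day 2 mean of at least 5 CPM. Since the shSC values chose the members, their height in shSC is a description with no test. The tests below use the 6 libraries of the shCTSL line, which had no part in the choice.

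All 12 libraries came from the CCE-Nanog-GFP mESC line, which reports Nanog promoter activity as green fluorescence, after lentiviral transduction with a short hairpin RNA vector and puromycin selection. The shSC line, labelled WT or scr, carried a scramble hairpin and the shCTSL line, labelled CTSL KD, a hairpin against cathepsin L (Ctsl), a lysosomal cysteine protease that the study examined as a protease of histone H2A. Each line was sampled as undifferentiated cells kept with leukemia inhibitory factor (LIF, Day 0) and as embryoid bodies rotated without LIF in 10 µM all-trans retinoic acid for 2 and 4 days, giving 6 groups of 2 biological replicates. Green fluorescent cells were sorted ahead of the experiments, per the study's methods, which do not say whether any sample was sorted again. Each line is a single transduced and selected population, so clone and hairpin cannot be told apart.

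Retinoic acid enters the nucleus, binds retinoic acid receptors on DNA and switches on target genes, and with LIF withdrawn it drives stem cells out of pluripotency into a mixture of early embryonic cell types. Genes that are high only for a short time in such a course are often regulators of an intermediate state, genes under negative feedback, or genes that are active in a cell type that is passing through the culture. In bulk RNA, fewer cells of a type and less RNA per cell cannot be told apart, and 3 sampled days fix neither the onset nor the true height of a peak.

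The libraries held 11171111 to 27155553 counts. Ctsl stood at 116 and 123 CPM in the shSC Day 0 libraries and 33.7 and 31.9 in shCTSL, at 409 and 430.2 against 222 and 172 at Day 2, and at 500.1 and 454 against 283 and 281 at Day 4, so the libraries of the 2 lines did not overlap on any day. The summed level of 9 pluripotency markers went from 5315 to 5358 CPM in the shSC Day 0 libraries to 1358 to 1388 at Day 2 and 651 to 711 at Day 4, and that of 10 markers of primitive and visceral endoderm from 9.80 to 10.03 CPM to 267 to 268 and 528 to 549. In shCTSL the same sums were 4912 to 4964, 1209 to 1306 and 630 to 700.3 CPM for pluripotency and 9.21 to 10.6, 231 to 276 and 600.3 to 640.4 CPM for endoderm. Trophoblast markers (9 genes) summed to 53.7 to 53.8 CPM at shSC Day 0, 88.5 to 96.4 at Day 2 and 243 to 274 at Day 4, and to 35.4 to 39.4, 75.2 to 89.1 and 252 to 273 in shCTSL. Endothelium and blood markers (8 genes) summed to 83.7 to 85.3, 243 to 246 and 447 to 486 CPM in shSC and to 62.5 to 68.7, 101 to 145 and 401 to 446 in shCTSL, and markers of neural progenitors and neurons (8 genes) to 210 to 221, 155 to 155 and 161 to 191 CPM in shSC and to 202 to 203, 170 to 192 and 148 to 164 in shCTSL. At Day 0, Afp, Ttr, Plac1, Prl3d1 and Hbb-bh1 were at 0 in shSC and Ttr, Elf5, Plac1, Prl3d1 and Hbb-bh1 in shCTSL, Prl3d1 was still at 0 at shSC Day 2 and Neurog2 was at 0 at shCTSL Day 2. None of the 5 marker sums was highest at Day 2 in shSC, and their part in the members' peak was not tested.

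The pair of shCTSL Day 2 libraries stood apart. Over all genes tested the SD of the log2 ratio between replicates was 0.604 in that pair and 0.178 to 0.269 in the other 5 pairs, and the ribosomal RNA gene Rn45s took 3.43% of the counts of shCTSL Day 2 replicate 1 against 0.170 to 1.44% in the other 11 libraries. Among the members, the replicate ratio at shCTSL Day 2 moved with transcript length: the 45 members shorter than the median exonic length of 3411 bases had a median ratio of replicate 1 to replicate 2 of 1.20, with replicate 1 above in 31, and the 46 longer ones a median of 0.869, with replicate 1 above in 12. Across the 91 members, which share these 2 libraries, Pearson's r of the log2 ratio with log2 length was -0.59 and Spearman's rho -0.55, against an r of -0.07 to 0.15 in the other 5 pairs. A total of 32 members lay more than 1.5-fold apart, with Cacna2d2, a calcium channel subunit with a long transcript, the farthest at 2.77-fold. The part of RNA quality or library preparation in this was not tested, and results that rest on 1 of these libraries are given with and without it below.

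**Figure D1:**
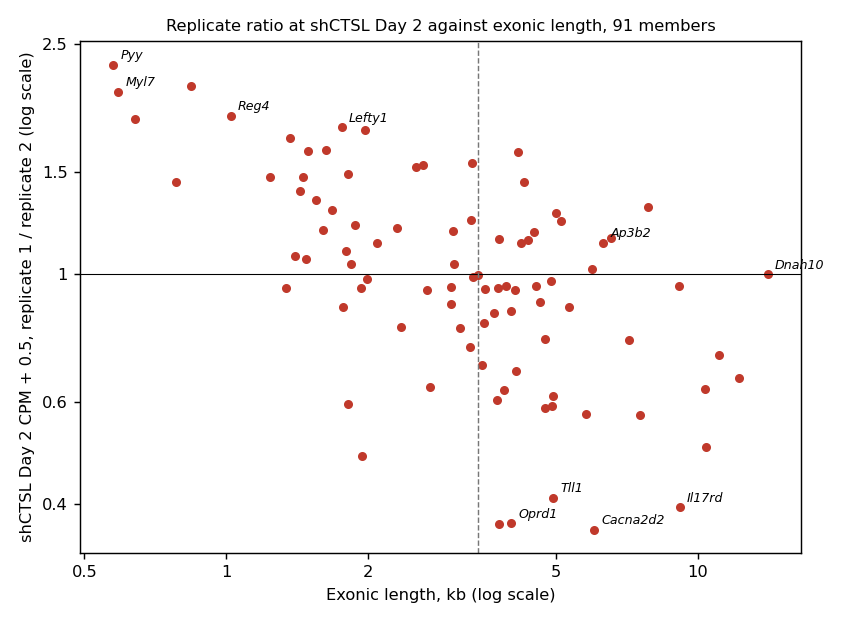
Ratio of replicate 1 to replicate 2 at shCTSL Day 2 (CPM + 0.5, log scale) against exonic length in kb (log scale), 1 point for each of the 91 members. The dashed line marks the median length of 3.411 kb, and the points pass from mostly above a ratio of 1 among short transcripts to mostly below it among long ones (r = -0.59).

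Together the 91 members took 524 and 532 CPM of the shSC Day 0 libraries, 3689 and 3629.9 at Day 2 and 706 and 803 at Day 4. In shCTSL they took 499 and 489, 4052 and 3819 and 918 and 966 CPM. The Day 4 sum was thus above the Day 0 sum in both lines. It was higher in shCTSL than in shSC, where the rule had required a low Day 4 level. In both lines each of the 91 members had both Day 2 libraries above all Day 0 and Day 4 libraries. The median member stood at 1.14 CPM at shSC Day 0, 15.6 at Day 2 and 2.69 at Day 4, and at 0.953, 15.4 and 3.79 CPM in shCTSL.

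The members ranged widely in level and in shape. The shSC Day 2 mean was at least 100 CPM in 6 members, 20 to 100 in 33 and under 20 in 52, and 41 members were under 1 CPM at shSC Day 0. Per kb of exon, the Day 2 level in shSC ran from 0.709 CPM for the axonemal motor gene Dnah10 to 176 CPM for Txnip, the thioredoxin-interacting protein. The ratio of Day 2 to the higher of the other days was set by Day 4 in 75 members and by Day 0 in 16, so for most members the level remaining at Day 4 decided how sharp the peak was. It was at least 5 in 22 members and 3 to 4 in 54. Day 4 was more than 2 times Day 0 (with 0.5 CPM added to each) in 38 members, within 2-fold of it in 52 and less than 0.5 times in 1, Lefty1.

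Just inside the 3-fold limit were Spag16 (ratio 3.02), Sez6 (3.04), Syt13 (3.04), Rasl10b (3.05) and Art5 (3.06). Just outside were Pla2g16 (2.99), the major histocompatibility gene H2-D1 (2.92), Myo7a (2.92) and Mapk13 (2.92). At the level limit, Art1 (5.07 CPM), Dusp26 (5.21) and Ffar3 (5.35) were the lowest members, and Rasl12 (4.68) and the immunoproteasome gene Psmb8 (4.56) had a ratio over 3 but too low a level. The limits therefore cut through a continuous range of genes. On TMM-scaled CPM (trimmed mean of M-values, which corrects for a shift in most genes) 67 of the 91 passed the rule, and 64 passed with each of the 6 shSC libraries left out in turn.

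**Figure D2:**
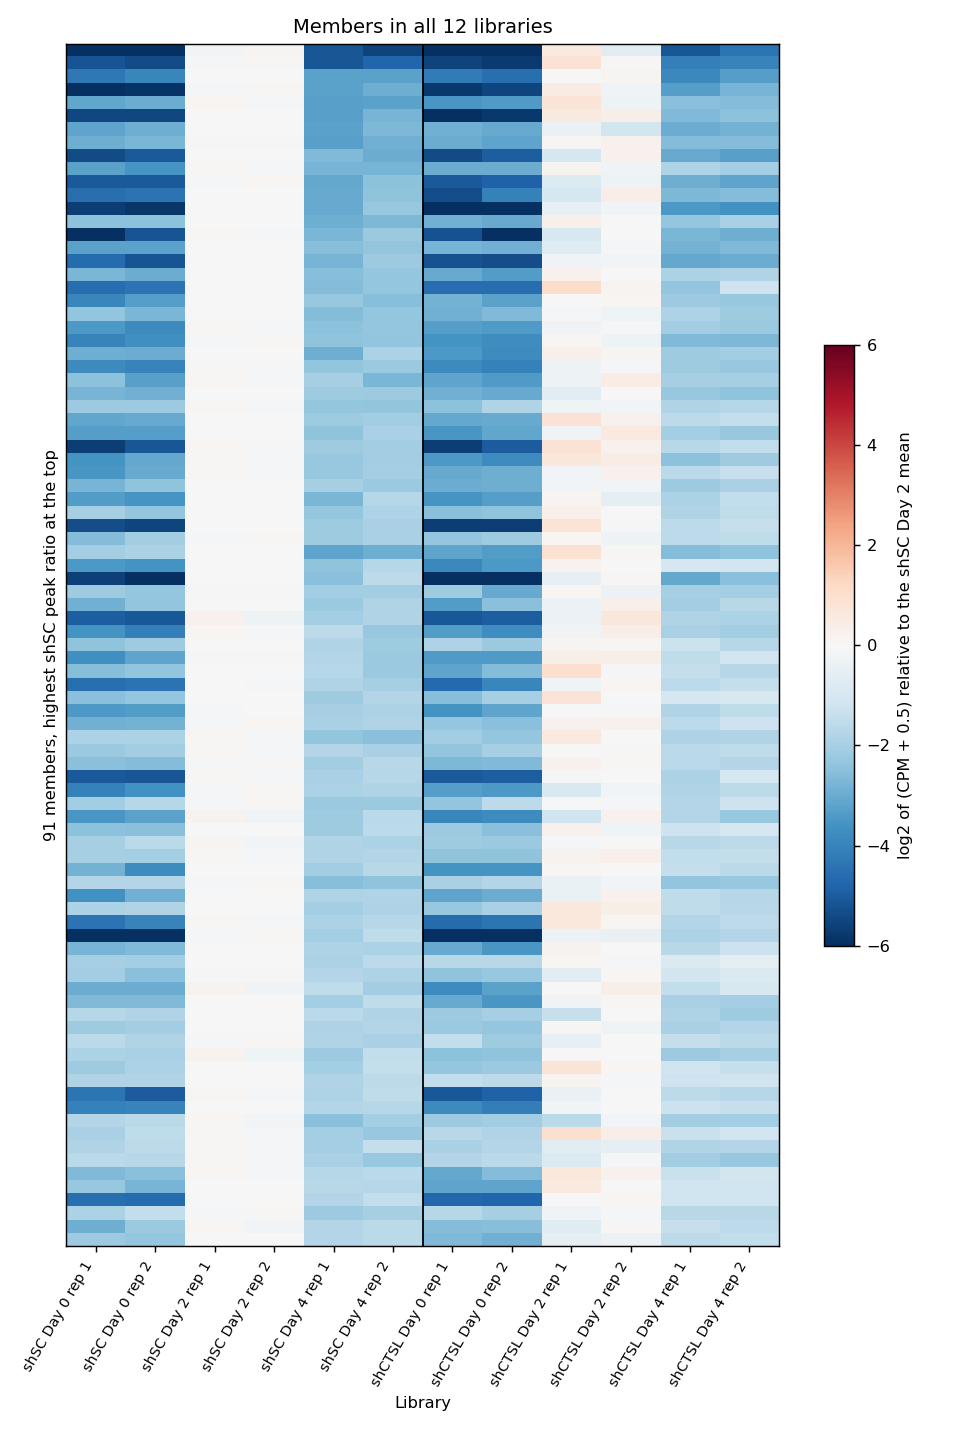
The 91 members (rows, highest shSC peak ratio at the top) in the 12 libraries (columns), coloured by log2 of CPM + 0.5 relative to the shSC Day 2 mean. In both lines the 2 Day 2 columns are the highest of every row. In 52 rows both Day 4 columns of shCTSL are above both of shSC, as they are in 37.3% of all genes tested.

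In the shCTSL line, which the choice did not use, the members had the same course. Expression was tested with edgeR's quasi-likelihood method over all 15532 genes that passed the count filter, all 91 members among them, with Benjamini-Hochberg adjustment over all genes tested. A gene was called changed at an adjusted p under 0.05 and a change of at least 1.5-fold. Of the 91 members, 91 were called higher at Day 2 than at Day 0, where 30.9% of all genes tested were, and 91 were called lower at Day 4 than at Day 2, where 12.4% were. Both calls together were met by 91 of 91 members and by 5.85% of all genes tested (909 genes). The median log2 fold change of Day 2 against Day 0 was 3.40 over the members and 0.08 over all genes, and that of Day 4 against Day 2 was -2.07 over the members and -0.02 over all genes. Fitted to the 6 shCTSL libraries alone, with no spread taken from shSC, 87 members met both calls. Without shCTSL Day 2 replicate 2, 87 met both, and without replicate 1, 91.

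The size of the change spanned a wide range. For the 79 members with more than 3 counts over the shCTSL Day 0 libraries the log2 fold change of Day 2 against Day 0 ran from 0.94 for Rab6b to 7.35 for Csn3. Another 5 members, Pyy, Lhx1, Chrna3, BC048679 and Reg4, had 0 counts in both shCTSL Day 0 libraries, so their rise is a lower bound, set against a floor of 3 counts over the group: at least 618-fold for Pyy, 292-fold for Lhx1, 288-fold for BC048679, 224-fold for Chrna3 and 159-fold for Reg4. The other 7 had 1 to 3 counts at Day 0, with Arg1 at 1 count of the group and a ratio of 1399 (95% exact interval 251 to 55280, counting error only). These bounds and ratios use library totals without TMM scaling, which lowered the log2 change of Day 2 against Day 0 by 0.34 in shCTSL. They are therefore on a higher scale than the edgeR values. With the 5 genes at their bound the median over the members remained 3.40. The fall from Day 2 to Day 4 ran from -0.80 for Ddc to -5.16 for Pyy.

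**Figure D3:**
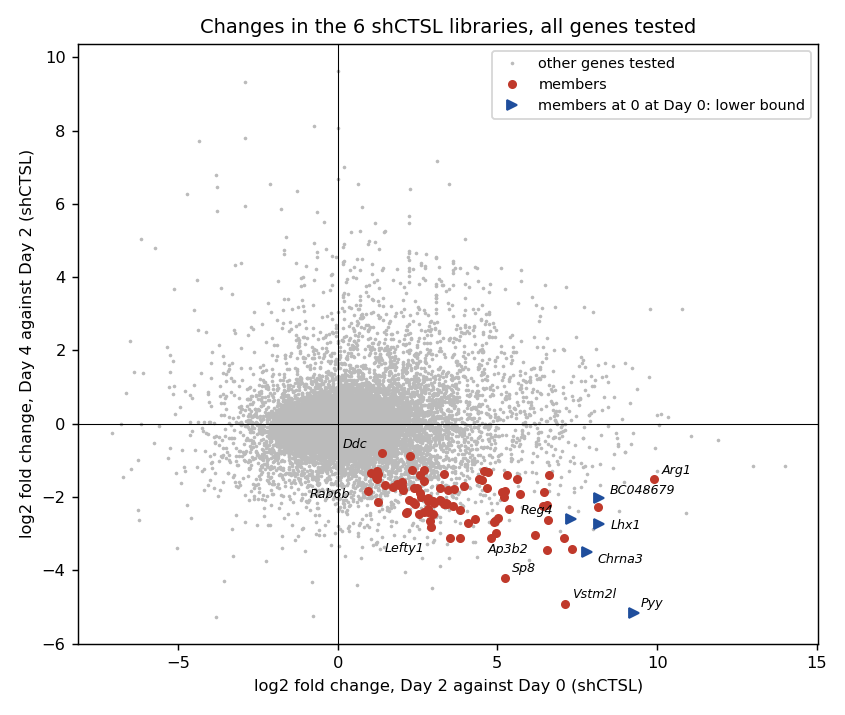
log2 fold change of Day 4 against Day 2 (vertical) against that of Day 2 against Day 0 (horizontal) in shCTSL, 1 point for each of the 15532 genes tested; members are red, and blue triangles mark the 5 members at 0 counts at Day 0, drawn at their lower bound. All 91 members lie to the lower right of the origin. The bounds use library totals without TMM scaling, unlike the other points.

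After the peak, Day 4 was called higher than Day 0 in 58 of the 91 members in shCTSL, where 32.3% of all genes tested were, and lower in 2, Clgn and Rab6b, where 27.6% were. The median log2 fold change of Day 4 against Day 0 was 1.24 over the members, 1.24 with the genes at 0 at their bound, and 0.06 over all genes. In the remaining 31 members the change did not pass the test. The count of 58 was 46 without shCTSL Day 0 replicate 1 and 39 where a log2 fold change of at least 1.5 was required. Scaling bears on this comparison: relative to plain CPM, the TMM normalization used in the test lowered the log2 change of Day 2 against Day 0 by 0.34 and that of Day 4 against Day 0 by 0.37 in shCTSL, and left Day 4 against Day 2 within 0.03.

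The genes encoding developmental signals and their modulators numbered 8 (Lefty1, Porcn, Il17rd, Dll1, Wfikkn1, Tll1, Cemip and Thbs4), with median log2 changes of 3.46 at Day 2 against Day 0 and -2.22 at Day 4 against Day 2 in shCTSL. This grouping of members by role, here and below, was made after their values were seen. Lefty1, a secreted antagonist of Nodal signalling and itself a Nodal target, stood at 55.3 and 60.8 CPM in the shSC Day 0 libraries, 225 and 229 at Day 2 and 24.9 and 29.3 at Day 4. In shCTSL it stood at 24.7 and 21.5 CPM at Day 0, 427 and 237 at Day 2 and 36.9 and 42.3 at Day 4 in shCTSL. The Day 0 libraries of the 2 lines did not overlap, with shCTSL lower, and at Day 2 and Day 4 both shCTSL libraries lay above both shSC libraries. In shCTSL it rose by 3.51 (SE 0.26, adjusted p = 1.76e-06) on the log2 scale and then changed by -3.11 (SE 0.25, adjusted p = 2.31e-05).

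Porcn, the acyltransferase that makes Wnt proteins fit for secretion, was at 25.5 and 29.4 CPM at Day 0, 209 and 187 at Day 2 and 20.3 and 26.4 at Day 4 in the shSC libraries. In shCTSL, Porcn was at 24.4 and 22.02 at Day 0, 210.1 and 237 at Day 2 and 32.7 and 32.6 at Day 4. The shSC Day 4 and Day 0 libraries had overlapping ranges, and in shCTSL the log2 change of Day 4 against Day 0 was 0.12 (SE 0.14, adjusted p = 0.472). Il17rd (Sef), an inhibitor of fibroblast growth factor signalling, was at 65.2 and 60.9 CPM at Day 0, 218 and 215 at Day 2 and 70.5 and 62.5 at Day 4 in shSC. In shCTSL, Il17rd was at 47.5 and 54.2 and then 83.4 and 212, so the Day 2 libraries were 0.395 in ratio, and at 59.1 and 49.6 at Day 4. Its rise at shCTSL Day 2 was 1.19 (SE 0.31, adjusted p = 0.00757), and without shCTSL Day 2 replicate 2 it was 0.42 (adjusted p = 0.00568) and below the 1.5-fold limit. Tll1, a metalloprotease that cleaves the BMP inhibitor chordin, had the same kind of gap, with 67.9 and 71.2 CPM at shSC Day 2 and 33.4 and 82.2 at shCTSL Day 2, from 1.23 and 1.603 and 1.22 and 1.79 at Day 0.

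Wfikkn1, a secreted protein that binds myostatin and GDF11, went from 0.387 and 0.775 CPM at shSC Day 0 to 47.8 and 40.7 at Day 2 and 9.78 and 10.2 at Day 4, and in shCTSL from 0.384 and 0.895 to 80.7 and 52.5 and 13.4 and 15.4. Dll1, a Notch ligand, was at 1.93 and 1.76 CPM at Day 0, 12.6 and 14.002 at Day 2 and 2.79 and 3.796 at Day 4 in shSC. In shCTSL, Dll1 was at 1.66 and 1.701 CPM at Day 0, 16.1 and 14.1 at Day 2 and 4.04 and 3.62 at Day 4, and it rose by 2.83 (SE 0.21, adjusted p = 1.56e-06). On the mm9 annotation 867 exonic bases of Dll1 overlap a noncoding gene on the other strand, A930024N18Rik, and the strand setting of the counting was not given in the sources used here. Cemip, a hyaluronan-degrading protein, was at 72.8 and 62.4 CPM at shSC Day 2 from 5.16 and 3.41 at Day 0, and at 58.1 and 88.3 from 6.08 and 4.65 in shCTSL.

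**Figure D4:**
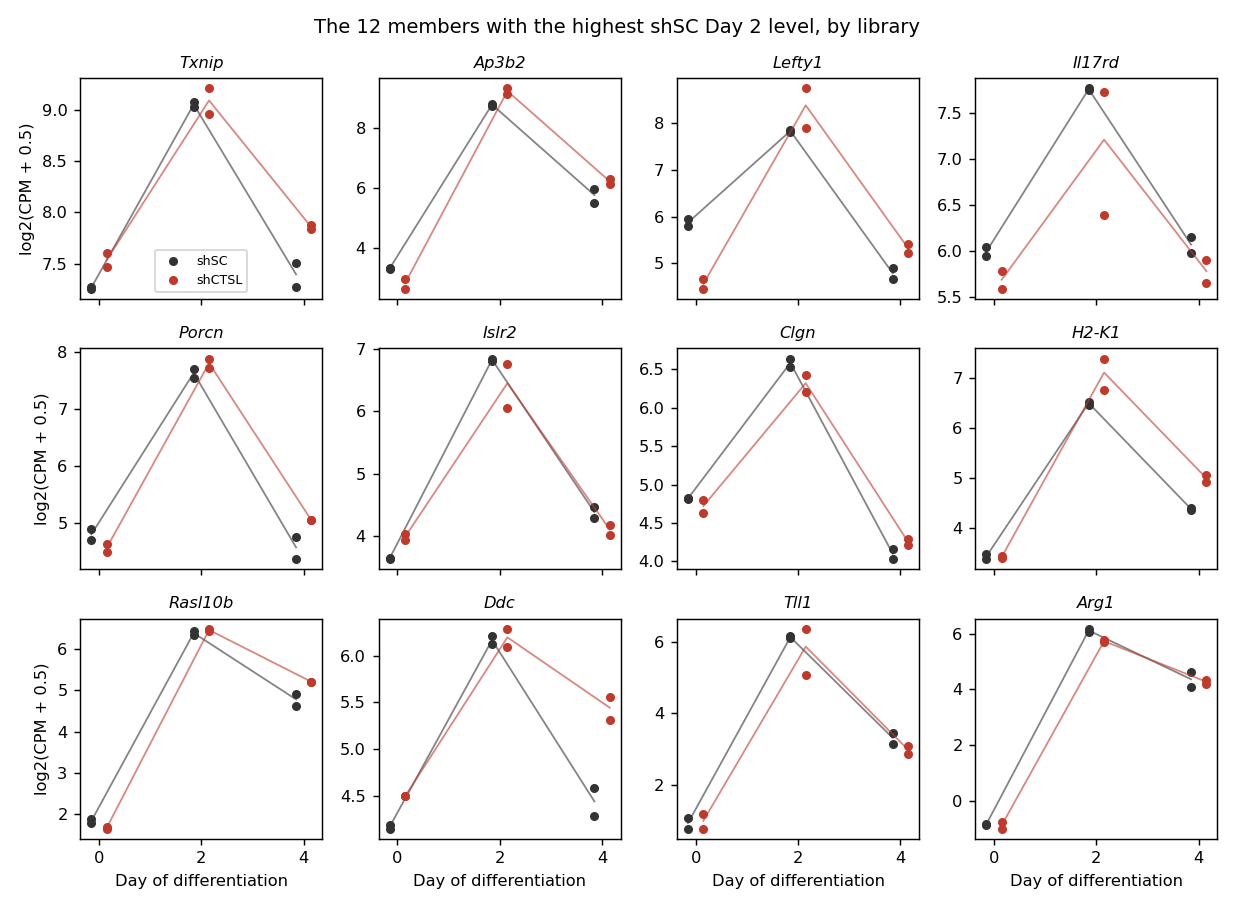
The 12 members with the highest shSC Day 2 CPM, as log2(CPM + 0.5) against day of differentiation; each point is 1 library (black shSC, red shCTSL) and the lines join the values of the group means. Every member has both Day 2 points above the other days in both lines, and the shCTSL Day 2 points of Il17rd and Lefty1 lie far apart.

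The 5 transcription factors had a median log2 rise of 5.23 at Day 2 and a median change of -2.44 from Day 2 to Day 4 in shCTSL. Lhx1, a LIM homeobox factor of the anterior mesendoderm and the node, had 0.258 and 0.0517 CPM at shSC Day 0, 36.9 and 34.6 at Day 2 and 5.803 and 11.7 at Day 4. In shCTSL it had 0 counts at Day 0, 25.6 and 37.9 CPM at Day 2 and 3.81 and 5.97 at Day 4 in shCTSL. Sp8, a zinc finger factor of limb and brain patterning, had one of the sharpest peaks. It was at 0.387 and 0.672 CPM at Day 0, 16.5 and 17.5 at Day 2 and 1.37 and 1.41 at Day 4 in shSC. In shCTSL, Sp8 was at 0.448 and 0.269 CPM at Day 0, 16.9 and 18.9 at Day 2 and 0.714 and 1.26 at Day 4, with a log2 change from Day 2 to Day 4 of -4.20 (SE 0.25, adjusted p = 3.87e-06). Msx1, a homeobox factor of mesenchyme and neural crest, was at 27.5 and 18.7 CPM at shSC Day 2 and 17.8 and 37.1 at shCTSL Day 2, from under 0.3 CPM in all 4 Day 0 libraries.

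Etv2, the ETS factor that starts the endothelial and blood programme, had the lowest ratio of shCTSL to shSC at Day 2 among the members, 0.610 with 0.5 CPM added to each mean. It was at 1.87 and 2.33 CPM at Day 0, 20.3 and 21.5 at Day 2 and 1.78 and 2.83 at Day 4 in shSC. In shCTSL, Etv2 was at 2.37 and 2.15 CPM at Day 0, 15.7 and 9.43 at Day 2 and 2.2003 and 2.52 at Day 4. Both shCTSL Day 2 libraries were below both shSC ones, as were the sums of the endothelium and blood markers given above, of which Etv2 is one. Within shCTSL it still rose by 2.13 (SE 0.30, adjusted p = 0.000151) and then changed by -2.44 (SE 0.29, adjusted p = 0.000214). Atf3, a stress-responsive leucine zipper factor, was at 16.2 and 19.6 CPM at shSC Day 2 and 21.2 and 21.7 at shCTSL Day 2, and its log2 change of Day 4 against Day 0 in shCTSL was 0.74 (SE 0.19, adjusted p = 0.00608). Without shCTSL Day 4 replicate 2 that change was 0.56 (adjusted p = 0.0534) and no longer called.

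The 3 members that are subunits of the neuronal nicotinic acetylcholine receptor lie side by side on chromosome 9 in mm9 (Chrna5 from 54828687 to 54855586 on the plus strand, Chrna3 from 54859150 to 54874366 and Chrnb4 from 54875963 to 54896351 on the minus strand), and all had their peak at Day 2. Chrna3 was at 0.129 and 0.0517 CPM at Day 0, 30.4 and 31.9 at Day 2 and 3.38 and 6.104 at Day 4 in shSC and had 0 counts at Day 0, 21.9 and 27.3 CPM at Day 2 and 2.44 and 2.03 at Day 4 in shCTSL. Chrnb4 was at 0.5803 and 0.569 CPM at Day 0, 32.1 and 37.9 at Day 2 and 3.75 and 5.95 at Day 4 in shSC. In shCTSL, Chrnb4 was at 0.576 and 0.716 CPM at Day 0, 19.7 and 28.4 at Day 2 and 4.22 and 3.45 at Day 4. Chrna5 was at 0.967 and 0.6203 CPM at Day 0, 15.8 and 14.7 at Day 2 and 2.38 and 2.68 at Day 4 in shSC. In shCTSL, Chrna5 was at 1.09 and 0.985 CPM at Day 0, 13.1 and 13.8 at Day 2 and 3.21 and 2.85 at Day 4. For all 3 subunits the shCTSL Day 2 libraries were both lower than either shSC library, as they were in 23.9% of all genes tested. At Day 4 those of Chrna3 were lower and those of Chrna5 higher than either shSC library, where 23.9% and 37.3% of all genes tested were. These line differences were not tested. No other gene tested lies between them. The next gene tested upstream of Chrna5, the proteasome subunit Psma4, had a log2 change of -0.18 at Day 2 (adjusted p = 0.547). The promoter bases of these 3 subunits are shown because they moved together. They are the 250 bases before the RefSeq start in GRCm38.p6, read 5′ to 3′ on the gene's strand, with any match to the motifs searched in capitals. For Chrna5 (chr9:54980630-54980879, plus strand) the capitals mark the TCF/LEF letters on the reverse strand. For Chrna3 (chr9:55026563-55026812, minus strand) they mark a GC box on the reverse strand, and Chrnb4 (chr9:55048545-55048794, minus strand) had no match.
Chrna5: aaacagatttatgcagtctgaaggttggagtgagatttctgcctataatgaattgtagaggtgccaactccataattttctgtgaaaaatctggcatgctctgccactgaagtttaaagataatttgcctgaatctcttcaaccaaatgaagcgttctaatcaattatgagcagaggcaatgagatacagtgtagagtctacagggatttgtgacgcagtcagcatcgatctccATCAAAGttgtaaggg
Chrna3: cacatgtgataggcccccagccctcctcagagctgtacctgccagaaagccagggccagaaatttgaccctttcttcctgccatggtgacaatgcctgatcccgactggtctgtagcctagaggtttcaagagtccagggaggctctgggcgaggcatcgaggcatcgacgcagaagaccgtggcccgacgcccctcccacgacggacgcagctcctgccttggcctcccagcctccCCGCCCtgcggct
Chrnb4: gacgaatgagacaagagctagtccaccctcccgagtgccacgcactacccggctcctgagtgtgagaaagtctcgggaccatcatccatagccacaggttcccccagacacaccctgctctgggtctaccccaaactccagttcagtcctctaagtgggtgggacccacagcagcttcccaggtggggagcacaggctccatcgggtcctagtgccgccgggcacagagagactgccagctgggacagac

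Among the members, 16 pairs of adjacent members lay within 1000000 bases of each other on mm9, and chromosomes 11, 7 and 9 held 16, 12 and 11 of the 91. The same counts over all genes were not made, so neither is read as clustering. Some pairs were far apart, such as Tmem132e and Rasl10b, with 962805 bases and 20 coding genes between them. On chromosome 11, members between 5701643 and 5966365 included Pgam2, the muscle phosphoglycerate mutase, Myl7, the atrial myosin light chain, and Camk2b, a calcium-dependent kinase subunit. Pgam2 rose by 3.82 (SE 0.38, adjusted p = 1.30e-05) in shCTSL, Myl7 by 3.82 (SE 0.48, adjusted p = 6.49e-05) and Camk2b by 2.39 (SE 0.12, adjusted p = 1.26e-07). Of 7 other genes tested between and beside them, 2 were called higher at Day 2 (Urgcp and Aebp1), 2 lower at Day 4 (Polm and Pold2) and 0 met both calls. Over all genes tested the shares were 30.9%, 12.4% and 5.85%, so 7 genes are too few to set these neighbours apart from other genes. Ykt6, beside Camk2b, had a log2 change of 0.11 at Day 2 (adjusted p = 0.341). Myl7 lay far apart between the shCTSL Day 2 libraries, at 17.6 and 8.25 CPM, from 0.512 and 0.985 at Day 0, and Pgam2 at 39.3 and 18.3 from 1.54 and 1.701.

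On chromosome 7, Ap3b2, the neuronal subunit of the AP-3 vesicle coat, and BC048679 lay 350 bases apart on the same strand. Ap3b2 went from 9.54 and 9.41 CPM at shSC Day 0 to 445 and 425 at Day 2 and 45.01 and 62.2 at Day 4, and from 5.76 and 7.34 to 631 and 557 and 69.5 and 77.8 in shCTSL. BC048679 was at 0.129 and 0.0517 CPM at Day 0, 25.04 and 24.3 at Day 2 and 5.3003 and 6.03 at Day 4 in shSC and at 0 counts, 44.05 and 23.6 and 8.09 and 9.04 CPM in shCTSL. In shCTSL, Ap3b2 rose by 6.18 (SE 0.20, adjusted p = 1.54e-08) and then changed by -3.05 (SE 0.17, adjusted p = 2.42e-06). The flanking gene Cpeb1 also met both calls, with log2 changes of 3.04 and -0.97, and 2900076A07Rik on the other side was called higher at Day 2 only.

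Art5 and Art1, which encode ADP-ribosyltransferases, are divergent genes on chromosome 7 whose bodies overlap by 1102 bases on opposite strands with no shared exon. Art5 was at 1.61 and 0.982 CPM at Day 0, 10.02 and 9.48 at Day 2 and 2.696 and 2.68 at Day 4 in shSC. In shCTSL, Art5 was at 0.6399 and 0.627 CPM at Day 0, 15.05 and 9.95 at Day 2 and 3.92 and 3.95 at Day 4. Art1 was at 0.774 and 0.6203 CPM at Day 0, 4.75 and 5.39 at Day 2 and 0.822 and 0.819 at Day 4 in shSC. In shCTSL, Art1 was at 0.768 and 0.179 CPM at Day 0, 5.51 and 3.82 at Day 2 and 0.892 and 0.877 at Day 4. Of 3 flanking genes tested 0 were called in either comparison in the direction of the members. Over all genes tested 30.9% were called higher at Day 2 and 12.4% lower at Day 4, so 3 genes are too few to show a contrast. Their promoters are shown because the pair moved together while holding different motifs, in the same form as above. For Art5 (chr7:102100230-102100479, minus strand) the capitals mark an E-box and 2 octamers on the reverse strand. For Art1 (chr7:102101493-102101742, plus strand) they mark the nuclear receptor letters AGGTCA and a TATA box that starts 30 bases before the start.
Art5: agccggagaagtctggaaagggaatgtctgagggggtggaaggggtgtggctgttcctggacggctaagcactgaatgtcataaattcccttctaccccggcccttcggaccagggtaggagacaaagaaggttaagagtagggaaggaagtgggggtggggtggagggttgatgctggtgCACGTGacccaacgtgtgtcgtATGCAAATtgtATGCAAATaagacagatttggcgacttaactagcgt
Art1: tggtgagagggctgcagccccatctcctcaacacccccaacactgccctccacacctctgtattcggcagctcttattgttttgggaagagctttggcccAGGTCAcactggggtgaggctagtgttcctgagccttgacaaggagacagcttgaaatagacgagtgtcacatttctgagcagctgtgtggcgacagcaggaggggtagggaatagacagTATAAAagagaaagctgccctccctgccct

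**Figure D5:**
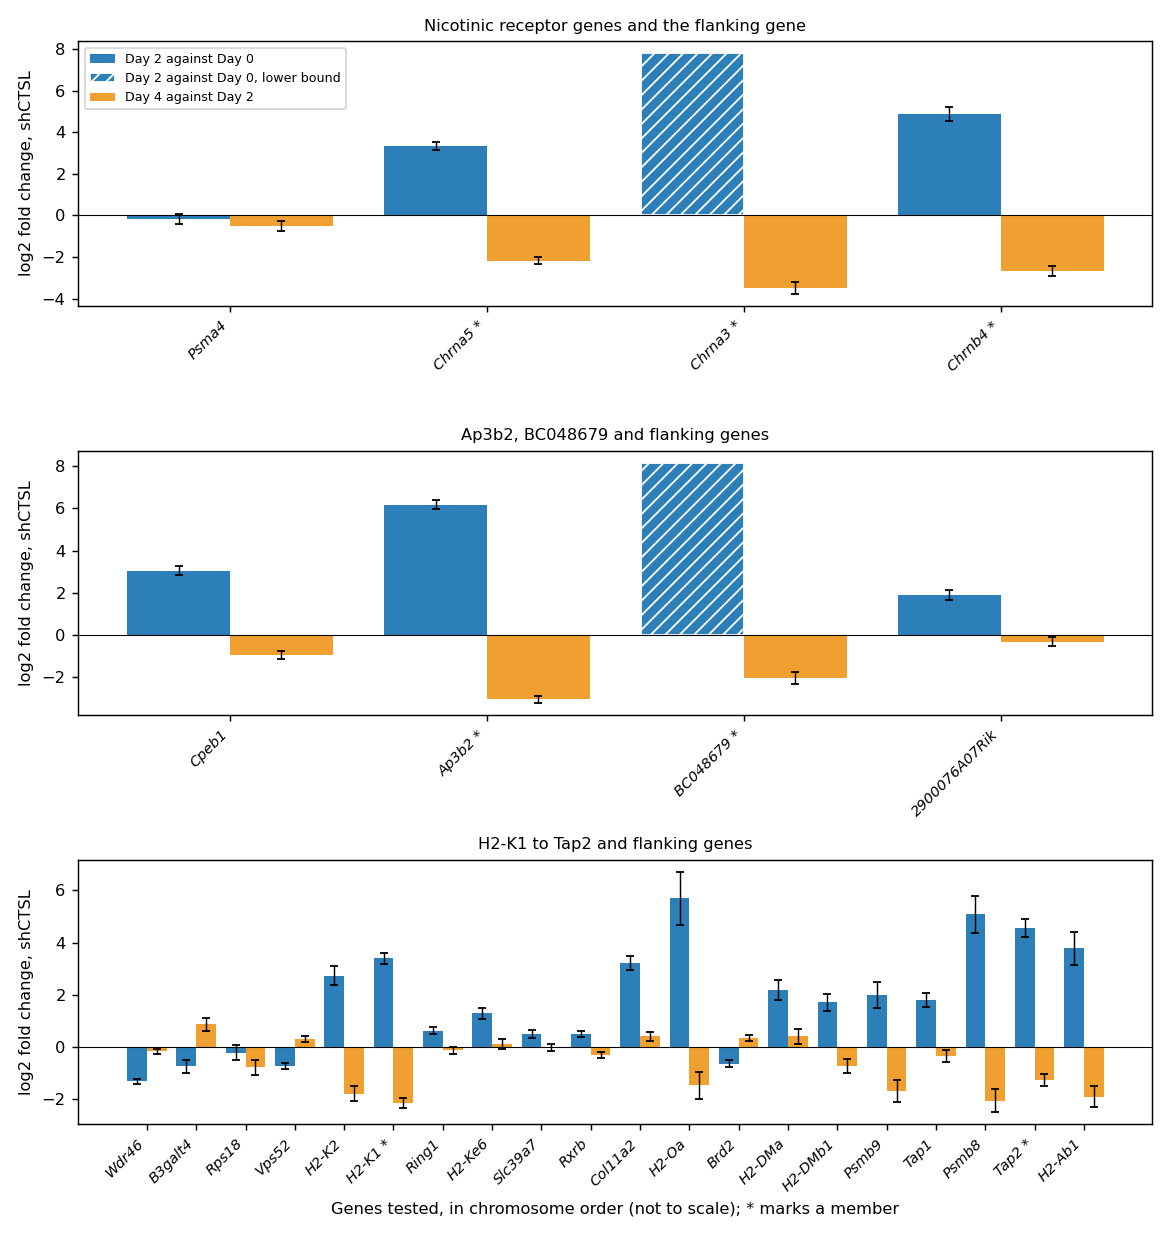
log2 fold changes in shCTSL with their standard errors for members (asterisks) and the other genes tested in 3 spans, in chromosome order; blue bars give Day 2 against Day 0 and orange bars Day 4 against Day 2. The hatched bars of Chrna3 and BC048679, at 0 counts at Day 0, are lower bounds without error, from library totals without TMM scaling. H2-Oa and H2-Ab1 rest on 1 and 3 counts at Day 0. Every member has a blue bar above and an orange bar below 0, while Psma4 and Brd2, for example, do not.

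The 67 members with a RefSeq promoter (250 bases before to 50 after the start, GRCm38.p6, both strands) were searched for exact motif letters only. The direct repeats of AGGTCA spaced by 5 or by 2 bases were found in 0 of 67 members each. They were in 2 of 27025 promoters each, so these strict letters are rare everywhere. A search for letters this rare cannot show whether the members hold a retinoic acid response element. A single AGGTCA was in 14.9% of the members and 16.0% of all promoters. TATAAA was in 11.9% and 14.2%, CCAAT in 32.8% and 37.9%, and GGGCGG, the GC box, in 53.7% and 35.9%. TCACACCT, the T-box letters, was in 0 of 67 and 1.3%, CTTTGAT (TCF/LEF) in 3.0% and 3.7%, TGACTCA (AP-1) in 3.0% and 5.2%, ATTTGCAT (octamer) in 6.0% and 1.8% and CACGTG (E-box) in 9.0% and 7.2%. AGGTCA is part of both direct repeats. The octamer was in 4 members, Art5, Dll1, Egln3 and Il4ra. These shares are descriptions, and no match in this window says only that the letters are not there.

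Ion channel genes outside the nicotinic family numbered 5 (Cacna1s, Cacna2d2, Cacng6, Scn8a and Kcnt1), with median log2 changes of 2.33 and -1.50 in shCTSL. Cacna1s, the skeletal muscle calcium channel, was at 6.55 and 5.97 CPM at shSC Day 2 and 10.2 and 8.81 at shCTSL Day 2. Cacna2d2 was at 4.71 and 5.27 CPM at Day 0, 19.1 and 15.4 at Day 2 and 2.65 and 3.87 at Day 4 in shSC. In shCTSL, Cacna2d2 was at 3.39 and 3.67 CPM at Day 0, 5.25 and 15.4 at Day 2 and 3.63 and 3.89 at Day 4. Its call in shCTSL rested on 1 library: Day 2 against Day 0 was 1.22 (SE 0.41, adjusted p = 0.0232), and 0.28 (adjusted p = 0.329) without shCTSL Day 2 replicate 2. Its fall to Day 4 was -1.50 (SE 0.39, adjusted p = 0.0167), and -0.55 (adjusted p = 0.0585) without that library. Both calls were also lost in the fit of the 6 shCTSL libraries alone, with adjusted p of 0.0718 and 0.0850.

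Genes of neuronal trafficking, adhesion and signalling numbered 11, among them Ap3b2 (above), with median log2 changes of 2.43 and -1.82. Islr2, a membrane protein of growing axons, was at 11.99 and 11.9 CPM at Day 0, 115 and 112 at Day 2 and 19.1 and 21.6 at Day 4 in shSC. In shCTSL, Islr2 was at 15.8 and 14.8 CPM at Day 0, 66.3 and 108 at Day 2 and 15.7 and 17.6 at Day 4. Nfasc, a cell adhesion protein of the axon initial segment and nodes of Ranvier, was at 6.83 and 6.51 CPM at Day 0, 51.9 and 49.99 at Day 2 and 11.2 and 11.02 at Day 4 in shSC. In shCTSL, Nfasc was at 6.46 and 5.91 CPM at Day 0, 32.7 and 52.04 at Day 2 and 9.99 and 9.04 at Day 4. In both genes shCTSL Day 2 replicate 1 was well below replicate 2, which was close to the shSC libraries. Rab6b, a neuronal Golgi GTPase, had the smallest rise of the members, 0.94 (SE 0.22, adjusted p = 0.00369), and without shCTSL Day 2 replicate 2 it was 0.54 (adjusted p = 0.00343) and below the 1.5-fold limit. Its Day 4 level was below that of Day 0, with a log2 change of -0.88 (adjusted p = 0.00606). Syt13, Sez6 and Nxph4, genes of synaptic vesicles and neuronal surfaces, stood at 10.8 and 11.98, 8.03 and 6.54 and 16.3 and 14.7 CPM at shSC Day 2 and 9.73 and 10.3, 4.15 and 7.64 and 17.5 and 13.4 at shCTSL Day 2. The summed markers of neural progenitors and neurons given above did not peak at Day 2 in either line, but a sum can hide single markers. Pax6, one of them, had a mean of 74.4 CPM at shSC Day 2 and peak ratios of 1.92 in shSC and 3.05 in shCTSL. In shCTSL its log2 changes were 3.11 at Day 2 against Day 0 and -1.67 at Day 4 against Day 2, and it met both calls.

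Peptide hormones, other secreted proteins and G protein-coupled receptors numbered 8 and had median log2 changes of 5.82 and -2.17. Pyy, peptide YY, a hormone of enteroendocrine cells, had the sharpest peak of all members, with a ratio of 39.8 in shSC and 28.3 in shCTSL. It had 0 counts in all 4 Day 0 libraries, 60.8 and 75.7 CPM at shSC Day 2 and 1.46 and 0.968 at Day 4, and 103 and 44.5 and 1.43 and 2.795 in shCTSL. Csn3, the milk protein kappa-casein, was at 33.1 and 36.04 CPM at shSC Day 2 and 49.2 and 30.1 at shCTSL Day 2, against under 0.3 CPM in every Day 0 library. Reg4, a secreted lectin of the gut, was at 11.3 and 11.4 and 24.6 and 12.9 CPM at Day 2 and had the highest shCTSL to shSC ratio at that day, 1.63. Trf, transferrin, which carries iron, was at 11.6 and 11.6 CPM at Day 0, 68.2 and 64.3 at Day 2 and 8.22 and 9.83 at Day 4 in shSC. In shCTSL, Trf was at 8.57 and 7.61 CPM at Day 0, 81.5 and 65.6 at Day 2 and 12.8 and 16.9 at Day 4. Each of Pyy, Csn3 and Reg4 was higher in shCTSL Day 2 replicate 1 than in replicate 2, and their exonic lengths were 575, 4152 and 1021 bases.

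The 9 metabolic enzymes and regulators had median log2 changes of 3.82 and -1.76. Txnip, an inhibitor of thioredoxin and glucose uptake, was at 154 and 152 CPM at Day 0, 524 and 542 at Day 2 and 154 and 181 at Day 4 in shSC. In shCTSL, Txnip was at 194 and 176 CPM at Day 0, 594 and 501 at Day 2 and 228 and 234 at Day 4. Its log2 change of Day 4 against Day 0 was -0.05 (SE 0.12, adjusted p = 0.705) in shCTSL, and 606 of its exonic bases overlap the noncoding Gm15441 on the other strand. Arg1, arginase, went from 0.0645 and 0.0517 CPM at shSC Day 0 to 65.2 and 71.9 at Day 2 and stayed at 16.3 and 23.8 at Day 4, and from 0 and 0.0895 to 54.04 and 50.9 and 17.9 and 19.7 in shCTSL. Ddc, the decarboxylase of dopamine and serotonin synthesis, had the smallest fall of the members in shCTSL. It was at 17.7 and 17.2 CPM at Day 0, 69.4 and 73.4 at Day 2 and 18.96 and 23.4 at Day 4 in shSC. In shCTSL, Ddc was at 22.01 and 22.02 CPM at Day 0, 77.8 and 67.9 at Day 2 and 39.4 and 46.7 at Day 4, with a log2 change from Day 2 to Day 4 of -0.80 (SE 0.13, adjusted p = 0.00172). Egln3, an oxygen-sensing prolyl hydroxylase, was at 15.6 and 14.5 CPM at shSC Day 2 and 9.67 and 10.3 at shCTSL Day 2, without overlap.

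The 5 proteases had median log2 changes of 2.98 and -2.07. Plau, urokinase, was at 0.709 and 0.775 CPM at Day 0, 27.8 and 25.98 at Day 2 and 7.45 and 6.48 at Day 4 in shSC. In shCTSL, Plau was at 0.576 and 1.34 CPM at Day 0, 23.4 and 29.1 at Day 2 and 8.68 and 9.81 at Day 4. Mmp9, gelatinase B, was at 0.903 and 1.65 CPM at Day 0, 20.4 and 21.2 at Day 2 and 3.88 and 3.13 at Day 4 in shSC. In shCTSL, Mmp9 was at 2.496 and 1.79 CPM at Day 0, 21.1 and 22.5 at Day 2 and 4.16 and 3.95 at Day 4. Ctsl itself was not a member, since it did not fall after Day 2. Germ cell and axoneme genes numbered 6, with median changes of 2.36 and -1.87. Clgn, a chaperone of the testis, was at 27.9 and 27.6 CPM at Day 0, 91.5 and 99.2 at Day 2 and 15.9 and 17.4 at Day 4 in shSC and ended below its start in shCTSL, with a log2 change of Day 4 against Day 0 of -0.85 (SE 0.12, adjusted p = 9.90e-05). Mael, of the piRNA pathway, and Sycp2, of the synaptonemal complex, were at 14.7 and 16.6 and 6.96 and 8.37 CPM at shSC Day 2 and 17.1 and 12.6 and 7.52 and 7.35 at shCTSL Day 2.

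Antigen presentation and lymphocyte signalling genes numbered 5 and had median log2 changes of 3.40 and -2.13. H2-K1, a classical class I heavy chain, was at 9.99 and 10.6 CPM at Day 0, 91.3 and 87.6 at Day 2 and 20.01 and 20.7 at Day 4 in shSC. In shCTSL, H2-K1 was at 10.1 and 10.4 CPM at Day 0, 166 and 107 at Day 2 and 29.97 and 32.8 at Day 4. It shares reads with near-identical class I genes, so its level is uncertain. Tap2, a subunit of the peptide transporter that loads class I, was at 0.516 and 0.414 CPM at Day 0, 10.5 and 10.8 at Day 2 and 1.599 and 2.903 at Day 4 in shSC. In shCTSL, Tap2 was at 0.256 and 0.537 CPM at Day 0, 12.3 and 10.6 at Day 2 and 4.995 and 4.604 at Day 4. On the mm9 annotation 165 and 533 exonic bases of Tap2 overlap 2 genes on the other strand, so without the strand setting its level is uncertain too. H2-K1 and Tap2 both lie in the major histocompatibility complex on chromosome 17, 203194 bases apart. Of the 18 other genes tested in and beside that span, 11 were called higher at Day 2, 5 lower at Day 4 and 5 both. Over all genes tested the shares were 30.9%, 12.4% and 5.85%, and the span as a whole was not tested. The 5 with both calls were H2-K2, H2-Oa, Psmb9, Psmb8 and H2-Ab1. They had 12, 1, 14, 4 and 3 counts over the shCTSL Day 0 libraries, so the size of their rise is uncertain. The 6 called higher at Day 2 alone were H2-DMa (2.18 on the log2 scale), H2-DMb1 (1.71) and Tap1, which also serve antigen presentation, and Col11a2 (3.21), H2-Ke6 (1.29) and Ring1 (0.62), which do not. Psmb8 changed by 5.08 and then by -2.07 on the log2 scale, and Psmb9, its immunoproteasome partner, by 1.97 and -1.70. Tap1, the other transporter subunit, rose by 1.80 at Day 2 and then had a change of -0.37 that did not pass the test (adjusted p = 0.278). The remaining 7, Brd2 (-0.65 and 0.33) and Rxrb (0.50 and -0.32) among them, were not called in either comparison in the members' direction.

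The genes with the sharpest peaks included Vstm2l, a secreted neuronal protein, at 0.645 and 0.517 CPM at Day 0, 38.5 and 43.8 at Day 2 and 0.685 and 1.04 at Day 4 in shSC. In shCTSL, Vstm2l was at 0.384 and 0.269 CPM at Day 0, 75.4 and 43.7 at Day 2 and 1.96 and 2.08 at Day 4. It changed by -4.92 (SE 0.30, adjusted p = 4.30e-06) from Day 2 to Day 4. Rasl10b, a small GTPase-like protein, was among the least sharp, at 3.16 and 2.89 CPM at Day 0, 86.5 and 81.2 at Day 2 and 24.3 and 29.7 at Day 4 in shSC. In shCTSL, Rasl10b was at 2.69 and 2.596 CPM at Day 0, 86.2 and 90.5 at Day 2 and 36.3 and 36.7 at Day 4. Pitpnm3, a phosphatidylinositol transfer protein family member, was at 32.4 and 28.6 CPM at shSC Day 2 and 15.4 and 31.1 at shCTSL Day 2, where only replicate 1 was below the shSC libraries.

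The members were also set side by side in the 2 lines. These comparisons are descriptions, since the shSC libraries chose the members. At Day 2 the ratio of the shCTSL mean to the shSC mean, each with 0.5 CPM added, had a median of 1.02 and ran from 0.610 for Etv2 to 1.63 for Reg4, and 85 of the 91 members lay within 1.5-fold. Each shCTSL library was lower than either shSC library in 19 members and above in 20, against the 23.9% and 21.1% of all genes tested that did so. The 19 below had a median exonic length of 4025 bases and the 20 above of 2804, alongside the length-dependent gap between the shCTSL Day 2 libraries. The part of that gap in these differences was not tested.

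At Day 4 fewer members overlapped between the lines. Both shCTSL libraries lay above both shSC libraries in 52 members, where 37.3% of all genes tested did, and below in 8, where 23.9% did. The median ratio was 1.25 over the members and 1.04 over all genes tested, with an upper quartile of 1.20 over all genes. The rule had required low shSC Day 4 values, which set the peak ratio in 75 members. The choice alone can therefore place shCTSL above shSC on that day, and nothing is read from this excess. The Day 4 libraries of the 2 lines had similar replicate spreads, and the members above had a median exonic length of 2846 bases against 4930.5 for those below. Ddc (ratio 2.01), Tap2 (1.93), Pnck (1.89), Lat (1.87) and Vstm2l (1.85) were highest and Chrna3 (0.521) lowest. At Day 0, 34 members had each shCTSL library below either shSC library, where 25.5% of all genes tested did, and 9 above, where 26% did, with Lefty1 lowest at 0.403. The median ratio over the members was 0.932 at Day 0, and many of these levels rest on few counts.

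When the same rule was applied to the shCTSL columns, it found 82 genes, of which 55 were members, that is 60.4% of the members and 67.1% of the shCTSL genes. Of the 36 members it missed, 35 had a ratio under 3, and in 34 of these Day 4 was the higher of the other days. The remaining one, Art1, kept a ratio of 3.37 at a Day 2 level under 5 CPM. The ratio of the missed members ran from 1.55 for Gsap to 3.37, so they still had their highest level at Day 2. Ddc (ratio 1.67 in shCTSL) and Txnip (2.36) were among the members that fell short. Since the members were picked for a shSC ratio of at least 3, and 54 of them lay between 3 and 4, members near the limit can fall under it in other libraries by the choice alone. Day 4 also set the ratio in 75 of the 91 members in shSC, so nothing is read from its part in the missed ones.

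Lists of genes of pathways known from early differentiation held few of the members: 7 members were in 5 of 13 lists. For scale, 30.9% of all genes tested in shCTSL were called higher at Day 2 than at Day 0. A further comparison, Day 4 lower than Day 2, was called in 12.4%, and both calls were met by 5.85%. The counts below are descriptions beside these shares, with no test of a list. Among primitive streak and mesendoderm factors, Lhx1 and Sp8 were members, and of the 15 others tested in shCTSL 5 were called higher at Day 2, 4 lower at Day 4 and 3 both (Eomes, Foxa2 and Nkx1-2). Of the Nodal pathway, Lefty1 was a member, and of 13 others 4 were called higher at Day 2, 6 lower at Day 4 and 2 both, Lefty2 among them. Nodal itself changed by 0.09 at Day 2 (adjusted p = 0.586) and then fell by 2.02 (adjusted p = 8.26e-06, edgeR). Of Notch and segmentation clock genes Dll1 was a member, and of 17 others 6 were called higher at Day 2, 5 lower at Day 4 and 0 both. Of germline genes Sycp2 and Mael were members, and of 15 others 7, 7 and 2 (Stra8 and Taf7l) were. Of immediate early genes Atf3 was a member, and of 14 others 4, 2 and 0 were.

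The other 8 lists held no member, and their counts stand beside the same shares over all genes tested. Of 23 retinoic acid targets and metabolism genes, 21 were called higher at Day 2 and 10 lower at Day 4, all 10 of which met both calls, among them Cyp26a1, Crabp2 and Stra8, and Hoxb1 and Cdx1, which had passed the numeric rule and were set aside by symbol. Counts called higher at Day 2, lower at Day 4 and both were 4, 9 and 2 of 18 formative and primed epiblast genes, 9, 7 and 4 of 18 Wnt targets and antagonists, and 9, 7 and 3 of 24 hindbrain and neural plate factors. They were 16, 0 and 0 of 17 two-cell-stage genes, 4, 2 and 0 of 18 p53 target genes, 10, 1 and 0 of 19 keratins and surface epithelium genes, and 15, 2 and 0 of 21 cadherins and guidance cues. The remaining 84 members were in no list.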

How the data were processed

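Poly(A) RNA of 12 libraries was sequenced and the authors deposited 1 table of raw read counts per RefSeq gene. Per the labels and the study's methods, the authors used STAR 2.3.0e on mm9, SAMtools 0.1.19 to remove low-quality, mitochondrial and unplaced alignments, and featureCounts 1.6.2. The strand setting is not stated in the sources used here. A gene sharing reads with a paralog or an antisense gene is therefore uncertain.

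CPM was the count over the library total. Members were picked by the CPM rule in shSC, and the members and gene lists were chosen with earlier results of these data known. Tests used edgeR 4.0.16 (R 4.3.3): quasi-likelihood fits to all 12 libraries with 1 mean per group and 6 residual degrees of freedom, TMM scaling, filterByExpr with a minimum count of 10, and Benjamini-Hochberg adjustment over 15532 genes. Only comparisons within shCTSL were tested. The p-values measure the spread between replicate cultures, pooled over all groups of both lines, with 1 transduced line each. The SD of the log2 ratio between replicates was 0.604 at shCTSL Day 2 and 0.178 to 0.269 in the other groups. Pooling can therefore understate the error of comparisons with shCTSL Day 2. Scripts were tested on simulated data. DESeq2 1.42.0 and the other settings are given in the closing section. Intervals and floors (3 counts) cover counting error only and use library totals without TMM scaling. Positions and exonic lengths came from the mm9 annotation (85 members matched by symbol, 6 by another name), and promoters from RefSeq on GRCm38.p6 (67 of 91 matched).

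Named genes were the 25 members highest at shSC Day 2, members of a list, the 10 at each end of the peak ratio and of the Day 2 line ratio, the 5 at each end of the Day 4 against Day 0 change in shCTSL, the genes at the limits, any member without a call, and Ctsl, with predicted loci left out. Other members, named by role or as neighbours, were chosen after their values were seen. Some genes are not reported here by name.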

Additional observations from a re-analysis of the deposited data

Results flagged for a closer look

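In 6 members every shCTSL library moved from Day 0 to Day 4 in the opposite direction to the shSC libraries, as log2(CPM + 0.5) of the group means. The difference between the lines was not tested, because the shSC values chose the members. The rule had required low shSC Day 4 values, so the choice alone can place a fall in shSC beside a rise in shCTSL. The same count over all genes was not made, and nothing is read from the number of such members. Lefty1, the Nodal antagonist, changed by 0.764 in shCTSL and -1.085 in shSC, and Trf, transferrin, by 0.841 and -0.3474. Pgam2, a glycolytic enzyme, changed by 0.8809 and -0.1731, and Lat, an adaptor of T cell receptor signalling, by 0.4874 and -0.4379. Syt13, a synaptotagmin, changed by 0.1646 and -0.407, and Prss50, a testis protease, by 0.3726 and -0.5372. On TMM-scaled values Syt13 no longer had opposite directions, at -0.1564 in shCTSL and -0.6925 in shSC. In the other 5 the directions were still opposite, with shCTSL changes of 0.3958 for Lefty1, 0.483 for Trf, 0.577 for Pgam2, 0.1565 for Lat and 0.09042 for Prss50. None of the 6 was called changed at Day 4 against Day 0 in shCTSL by edgeR's quasi-likelihood test: the adjusted p was 0.173 for Lefty1, 0.168 for Pgam2, 0.591 for Lat, 0.465 for Syt13 and 0.792 for Prss50, and Trf, at 0.0305, had a log2 change of 0.50, below the 1.5-fold limit.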

How the results depend on the processing

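The number of genes found by the rule depended on its limits: 265 at a 2-fold limit, 37 at 4-fold, 58 with 1 CPM added and 61 at a Day 2 level of at least 10 CPM, against 91. With 1 shSC library left out it was 80 to 106. With a log2 fold change of at least 1.5 required, 0 members were called lower at Day 4 than at Day 0 in shCTSL, against 2. Under the same requirement 82 were called higher at Day 2, 75 lower at Day 4 than at Day 2, 72 both and 39 higher at Day 4 than at Day 0, against 91, 91, 91 and 58. With 1 shCTSL library left out, 88 to 91 members were called higher at Day 2, 86 to 91 lower at Day 4 than at Day 2, 86 to 91 both, and 46 to 64 higher at Day 4 than at Day 0. DESeq2 gave 91, 91, 91 and 60 for these counts. Offsets for exonic length, chosen after seeing the data, gave 91, 91, 91 and 59. No result reversed. Of the values for single named genes under the alternatives, 1608 stayed on the same side of the threshold and 30 lost a call, in Atf3, Cacna2d2, Camk2b, Ddc, Dll1, Il17rd, Myl7, Nxph4, Rab6b and Sez6, and the cause was not tested. Depth limits the 12 members with 3 or fewer counts over the shCTSL Day 0 libraries.

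The groups share replicate numbers, and the main fit took the samples as unpaired. The correlation of replicate differences between groups ran from -0.465 (shCTSL Day 2 and Day 4) to 0.257 (shCTSL Day 0 and Day 2). These values cannot show whether samples were paired or prepared together. With the replicate block, 91, 91, 91 and 59 members were called in the same 4 counts.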

Other observations

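The same rule applied to the shCTSL columns found 27 genes that were not members. They are given as values, since the difference between the lines was not tested. The 4 lowest peak ratios in shSC were those of Rmrp at 0.284, Mir6236 at 0.329, Rn45s at 0.359 and Lars2 at 0.445, against 7.39, 8.11, 6.19 and 5.96 in shCTSL. Rn45s took 3.43% of the counts in shCTSL Day 2 replicate 1 and 0.553% in replicate 2. It took 0.212 and 0.431% in the shCTSL Day 0 libraries and 0.376 and 0.228% in those of Day 4. The shCTSL ratio of Rn45s thus rested mainly on replicate 1 of Day 2. Lefty2, the paralog of the member Lefty1, had a ratio of 1.49 in shSC and 3.39 in shCTSL, and Igfbp2, a binding protein of insulin-like growth factors, of 1.86 and 3.56. Crabp2, a retinoic acid carrier, had 2.38 and 3.13, Pax6, a neural and eye transcription factor, 1.92 and 3.05, and Prph, a neuronal filament protein, 1.87 and 3.91. Cd74, the class II invariant chain, had 2.74 and 3.59. Rasl12, Psmb8 and Kcng4 had shSC ratios of 3.09, 3.72 and 3.85 and missed membership only by a Day 2 level under 5 CPM in shSC.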
